A study of Mus musculus with 7 samples.

Results

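Of the 56941 genes in the count matrices, 8 SOX transcription factor genes were followed: Sox1, Sox2, Sox4, Sox5, Sox6, Sox9, Sox11 and Sox21. They were taken by symbol, all 8 were present in the matrices of all 4 animals, and each was described across animals, genotypes and marker-defined classes of nuclei. The material was single nuclei of primary lung tumors from male mice with small cell lung cancer (SCLC), a neuroendocrine lung cancer. RP mice, RP1 and RP2, carried Rb1 fl/fl and Trp53 fl/fl, and RPC mice, RPC1 and RPC2, carried Rb1 fl/fl, Trp53 fl/fl and in addition a Casp8 allele that the labels write as Casp8-/- and the design text describes as conditional. All tumors followed inhalation of an adenovirus carrying Cre, which the methods name as Ad5-CMV-Cre, so that recombination was not confined to 1 cell type by its promoter. Per the methods, mice inhaled it at an age of 8 to 12 weeks and the tumors profiled here were endpoint tumors. The 7 libraries each pooled nuclei of all 4 animals, so the animal was the replicate (n = 2 per genotype), and the comparison asks what the loss of caspase 8, the initiator protease of death receptor signaling, goes along with in this tumor.

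SOX proteins bind DNA through a shared HMG box, and their subgroups are read by similarity to it. The SOXB1 factors SOX1 and SOX2 maintain neural stem and progenitor cells, and SOX2 is also a factor of the airway epithelium, whereas the SOXB2 factor SOX21 counteracts SOXB1 factors at shared sites. The SOXC factors SOX4 and SOX11 act in neuronal precursors and in other immature cells, the SOXD factors SOX5 and SOX6 lack a domain of their own for activation or repression and bind as dimers, and the SOXE factor SOX9 acts in cartilage, glia and distal lung epithelium.

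To show how close the 8 genes are where they bind DNA, the same 20 codons of the HMG box are printed from each gene, read from the GRCm39 genome with GENCODE M39 models and written on the coding strand. Capitals mark bases that differ from Sox2.
Sox1: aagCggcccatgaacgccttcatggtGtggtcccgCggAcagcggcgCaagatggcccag
Sox2: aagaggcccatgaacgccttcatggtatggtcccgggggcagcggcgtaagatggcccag
Sox21: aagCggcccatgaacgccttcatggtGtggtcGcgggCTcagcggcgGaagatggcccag
Sox4: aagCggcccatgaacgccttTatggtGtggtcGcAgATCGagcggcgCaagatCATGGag
Sox11: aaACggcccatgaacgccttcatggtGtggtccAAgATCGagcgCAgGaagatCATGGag
Sox5: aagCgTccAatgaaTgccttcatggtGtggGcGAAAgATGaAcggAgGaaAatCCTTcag
Sox6: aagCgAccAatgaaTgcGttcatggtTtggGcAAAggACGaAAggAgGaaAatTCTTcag
Sox9: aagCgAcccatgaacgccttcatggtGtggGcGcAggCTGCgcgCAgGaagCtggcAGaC

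Sox1 shared 55 of the 60 bases with Sox2 and Sox21 shared 54, against 45 for Sox4, 43 for Sox9 and Sox11, 39 for Sox5 and 38 for Sox6. The stretch lies at chr8:12446514-12446573 on the plus strand in Sox1, at chr3:34704694-34704753 on the plus strand in Sox2 and at chr14:118472964-118473023 on the minus strand in Sox21. It lies at chr13:29136768-29136827 in Sox4 and chr12:27392201-27392260 in Sox11, both on the minus strand, and at chr6:143786943-143787002 in Sox5 and chr7:115088941-115089000 in Sox6, also on the minus strand. In Sox9 it lies at chr11:112673726-112673785 on the plus strand. All of these are coding exon positions. The longest identical coding run between any 2 of the genes was 48 bases, between Sox4 and Sox11, followed by 38 bases between Sox1 and Sox2 and between Sox2 and Sox21.

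The gene models fall into 2 kinds, and this bears on counts from nuclei, which hold unspliced RNA. Sox1 (chr8:12445295-12450126), Sox2 (chr3:34704554-34706610), Sox4, Sox11 and Sox21 have a single exon. Sox5 (chr6:143774151-144727703) spans 954 kb and Sox6 (chr7:115070106-115638860) spans 569 kb, each with 15 exons in its canonical transcript, and Sox9 has 3 exons. Sox1 lies within the noncoding gene Sox1ot and Sox2 within Sox2ot, each on the same strand, so reads of the overlapping parts could be assigned to either gene. The genes Sox5, Sox6, Sox9 and Sox21 overlap noncoding genes on the opposite strand, and Sox4 lies within one on each strand. Sox5 and Sox6 also span noncoding genes on their own strand.

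Series of 4 values that follow each other are given in the order RP1, RP2, RPC1, RPC2 throughout. After quality filters, 38254 of 38353 deposited nuclei were kept, namely 8363, 8874, 10853 and 10164, with a median of 2255, 2223, 3392 and 2767 transcripts per nucleus and 32256394 to 70517884 transcripts per animal. No barcode was shared between animals. Nuclei were clustered without any SOX gene among the variable genes, and clusters were called tumor-like, or after another cell type, from marker lists. Tumor-like nuclei numbered 7082, 7195, 9187 and 8647. Among the named classes checked, 12 of the 14 neuroendocrine markers were highest in this class, with none at 0. These markers also served in naming the class, so this was no independent check of the name. A further 2148 nuclei stayed unnamed, and 286, 450, 743 and 331 nuclei in sub-clusters at least 2 times as deep as the animal's median, which can hold doublets, were set apart. The ribosomal RNA gene Rn18s-rs5 took 9.25%, 7.79%, 2.78% and 5.06% of the tumor-like transcripts, and the 12 endothelial markers summed to 759, 910, 2200 and 1332 CPM (counts scaled to a common library total), with 1 of the 12 at 0 in RP1. Both measures separated the genotypes, and their part in the results was not tested.

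The label check was limited, since counts cover a whole gene and the deleted part cannot be told apart. In tumor-like nuclei, Casp8 stood at 59.0, 61.0, 88.8 and 66.4 scaled CPM, where scaled CPM are CPM corrected by TMM factors. Its log2 difference of RPC from RP was 0.37 ± 0.19 (SE; edgeR quasi-likelihood test, adjusted p = 0.40), so the count of Casp8 was not lower in the animals labelled RPC. Rb1 lay between 321 and 433 scaled CPM, and Trp53 between 12.5 and 18.1.

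In tumor-like nuclei of all 4 animals, Sox6 and Sox5 gave the most transcripts of the 8 genes and Sox9 the fewest. Unscaled levels were 236 ± 157 CPM for Sox6, 144 ± 62.9 for Sox5, 58.2 ± 20.4 for Sox11, 47.7 ± 5.54 for Sox4 and 33.6 ± 11.9 for Sox2 (mean ± SD over 4 animals). Per kilobase of exon the order of these levels changed, with Sox2 at 16.3 CPM, Sox6 at 14.5, Sox4 at 9.95, Sox5 at 9.25 and Sox11 at 7.00. Sox1 followed at 1.02, Sox21 at 0.347 and Sox9 at 0.0616 CPM per kilobase of exon. Per kilobase of the whole gene, Sox2, Sox4 and Sox11 kept these values, while Sox6 came to 0.415 and Sox5 to 0.151 CPM.

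In the comparison of RPC with RP tumor-like nuclei, Sox2 stood higher and Sox1 and Sox5 stood lower in both RPC animals, but none of the 8 genes passed the test across all genes. edgeR called 0 of 20105 genes (0%) at an adjusted p under 0.05, and 3 of the 8 SOX genes had an unadjusted p under 0.05, against a background of 15%. Higher by this rule was 1 member, against 7.33% of all genes, and lower were 2, against 7.69%. The median log2 difference was 0.04 over the 8 genes and -0.01 over all genes tested. By DESeq2, which called 609 genes (3.49%), Sox1 alone of the 8 was called (adjusted p = 0.0027).

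**Figure D1:**
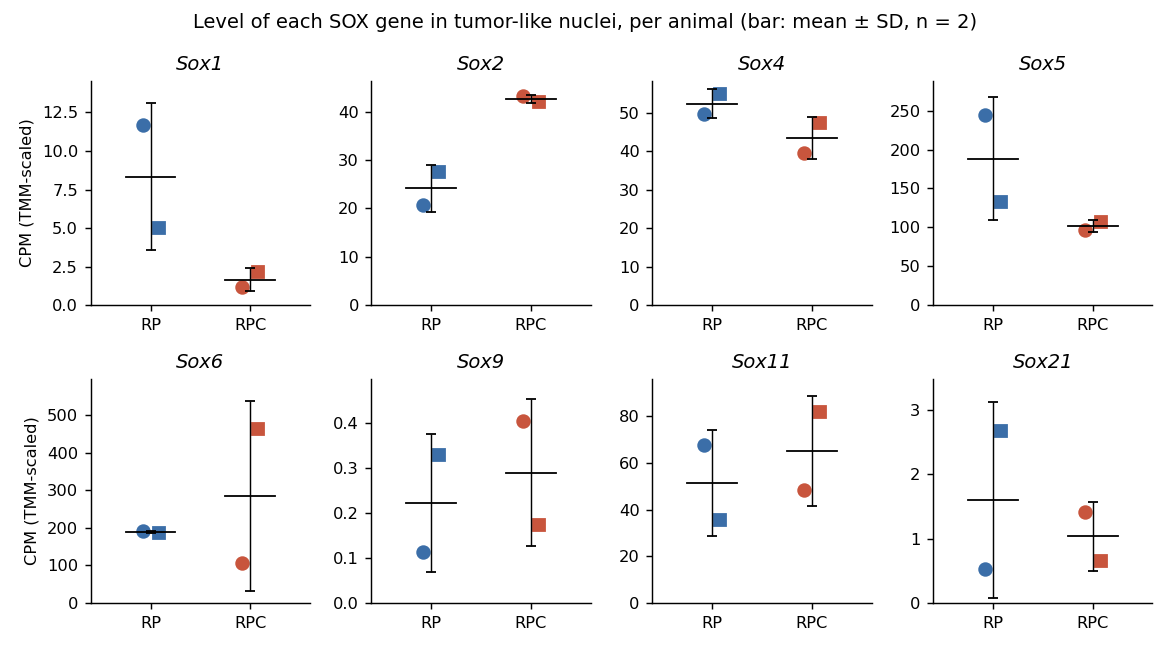
Level of each SOX gene in tumor-like nuclei in TMM-scaled CPM (y axis, linear, a scale of its own per gene) for RP (blue) and RPC (red) animals, with circles for replicate 1, squares for replicate 2 and the bar at the mean ± SD (n = 2). The genotypes do not overlap for Sox1, Sox2, Sox4 and Sox5, while for Sox6 the lowest (106) and the highest (462) animal are both RPC.

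Sox1, the SOXB1 factor of early neural progenitors, was at 11.7, 4.98, 1.16 and 2.17 scaled CPM. Both RP animals were above both RPC animals, although the RP animals themselves differed. Averaged over the 2 animals of a genotype this was 8.34 ± 4.75 (SD) for RP against 1.67 ± 0.718 for RPC. The log2 difference of RPC from RP was -2.32 ± 0.56 (SE), 5.01-fold lower (edgeR, adjusted p = 0.27). A single cluster held 40.4% of all Sox1 transcripts of tumor-like nuclei, and 2040 of its 2076 nuclei came from RP1. Without that cluster the log2 difference was -1.55. In RP1 the level of Sox1 also moved between wells, from 6.10 to 14.8 CPM.

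Sox2, the SOXB1 factor of stem cells and airway epithelium, was at 20.7 and 27.5 scaled CPM in RP1 and RP2 and at 43.2 and 42.0 in RPC1 and RPC2. The 2 RPC animals were close together and above both RP animals. The log2 difference was 0.82 ± 0.20 (SE), 1.77-fold higher in RPC (edgeR, adjusted p = 0.27), and it lay between 0.63 and 1.04 when 1 animal was left out. Within an animal the 7 sublibraries ran from 16.5 to 23.4 and from 25.6 to 29.5 CPM in the RP animals, and from 40.8 to 48.9 and from 38.6 to 46.3 in the RPC animals. No sublibrary of an RP animal thus reached one of an RPC animal, but sublibraries split the nuclei of the same animal and add no replicates.

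Sox21, the SOXB2 factor, was rare, with 14, 73, 77 and 30 transcripts. The animals of the 2 genotypes overlapped, and the log2 difference was -0.63 ± 0.82 (SE; edgeR, adjusted p = 0.73).

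Sox4, a SOXC factor, varied least among the genes, at 49.6, 54.9, 39.6 and 47.3 scaled CPM. Both RPC animals lay below both RP animals, by a log2 difference of -0.27 ± 0.17 (SE; edgeR, adjusted p = 0.47). Sox11, the other SOXC factor, was at 67.6, 35.4, 48.3 and 81.9 scaled CPM. Here the animals within a genotype differed more than the genotypes, whose log2 difference was 0.34 ± 0.39 (SE; edgeR, adjusted p = 0.70) and fell to -0.05 without RP2 and to -0.07 without RPC2.

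Sox5, a SOXD factor, was at 244, 132, 96.2 and 107 scaled CPM. RP1 stood apart from the other 3 animals. The log2 difference of RPC from RP was -0.89 ± 0.31 (SE; edgeR, adjusted p = 0.30), -0.38 without RP1 and -0.36 without the RP1 cluster that held 23.4% of all Sox5 transcripts of tumor-like nuclei. Left without the cluster led by neuronal genes, described below, it was -1.32. Sox6, the other SOXD factor, was at 191, 186, 106 and 462 scaled CPM. The RPC animals lay on either side of the RP animals, the log2 difference was 0.59 ± 0.65 (SE; edgeR, adjusted p = 0.68), and without RPC2 it was -0.81.

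Sox9, the SOXE factor, was nearly absent from tumor-like nuclei, with 3, 9, 22 and 8 transcripts. These counts are 0.113 to 0.405 scaled CPM and gave a log2 difference of 0.39 ± 0.72 (SE; edgeR, adjusted p = 0.81).

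The 4 animals did not overlap between genotypes for Sox1, Sox2, Sox4 and Sox5, 4 of the 8 genes, against 50.2% of all genes tested. In these sums over nuclei, fewer nuclei expressing a gene and less RNA per nucleus cannot be told apart. Over all kept nuclei, which does not rest on the names of clusters, the log2 differences were -2.39 for Sox1, 0.82 for Sox2 and -0.59 for Sox5, and edgeR called 0 of 21405 genes (0%), with 2 of the 8 SOX genes at an unadjusted p under 0.05 against 15.5% of all genes. DESeq2 called 689 genes (3.55%) there, Sox1 among them.

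**Figure D2:**
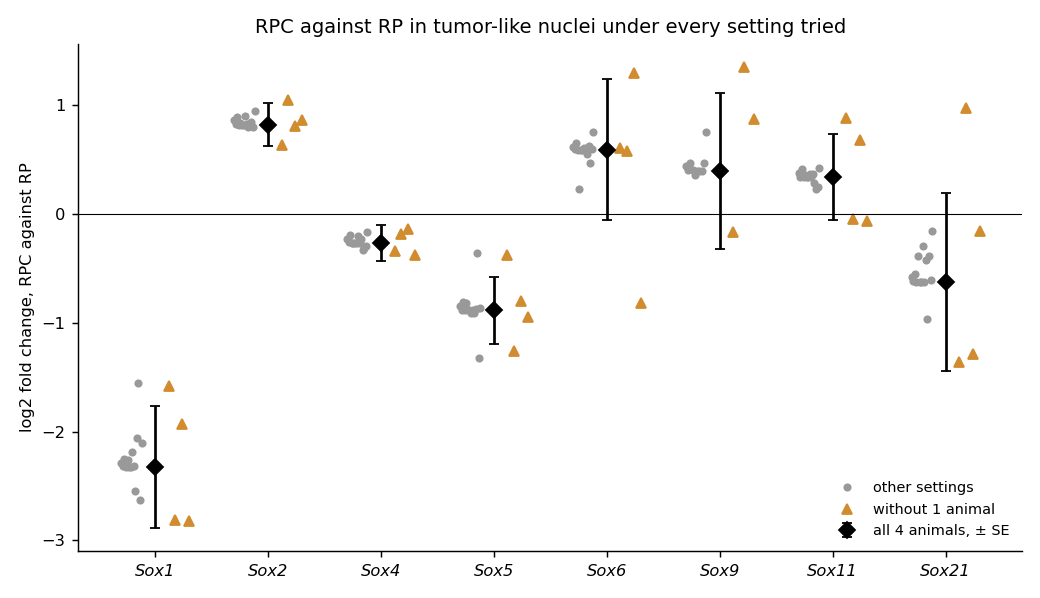
Log2 difference of RPC from RP in tumor-like nuclei (y axis) for each SOX gene (x axis), with black diamonds for the fit on all 4 animals ± SE, grey circles for other settings and orange triangles for fits without 1 animal. Sox1, Sox2, Sox4 and Sox5 keep their direction in all settings drawn, whereas Sox6, Sox9, Sox11 and Sox21 cross 0 when an animal is left out.

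The genes around the members were read in the same fit. Of the 11 other SOX genes only Sox12 and Sox13 passed the filter on low counts, neither was called, and Sox13, a further SOXD factor, stood at 39.9, 60.1, 78.7 and 57.4 scaled CPM. Sox12, the third SOXC factor, lay between 14.3 and 21.2 scaled CPM. The overlapping transcript Sox2ot was at 24.2, 32.6, 77.2 and 38.0 scaled CPM (log2 difference 1.02 ± 0.37 (SE), edgeR adjusted p = 0.32) and Sox1ot at 13.8, 19.0, 7.58 and 5.69 (-1.31 ± 0.28 (SE), edgeR adjusted p = 0.27). Each thus stood on the same side as the gene it overlaps, in a fit that passed neither.

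Lists of partner and lineage genes gave 0 calls by edgeR in tumor-like nuclei. The counts below at an unadjusted p under 0.05 stand beside 7.33% of all genes tested higher and 7.69% lower by the same rule. Of the POU and PAX partner factors 12 of 18 were tested, of which 1 was higher and 1 lower at an unadjusted p under 0.05, the eye and endocrine factor Pax6 (log2 difference 1.40 ± 0.49) and the neural factor Pou3f4 (-3.56 ± 1.18, SE). Among 17 tested neural stem and progenitor genes 1 was lower at that threshold, the intermediate filament gene Vim (-1.19 ± 0.32). Signs were positive for 7 of these genes and negative for 10, the highest being Gfap (1.004 ± 0.396), not at that threshold. The neurogenic list had 2 higher and 2 lower of 18 tested, the lower ones being the nuclear RNA-binding factor Rbfox3 (-0.90 ± 0.18) and the proneural gene Neurod4 (-2.09 ± 0.68). By sign 9 were positive and 9 negative. The highest values were those of Stmn2 (1.29 ± 0.60) and Gap43 (1.02 ± 0.66), neither at that threshold. Of 9 cartilage and matrix genes tested, which SOX5, SOX6 and SOX9 are known to drive in cartilage, 1 was lower, the collagen gene Col11a2 (-1.32 ± 0.36). By sign 3 of them were positive and 6 negative, the highest being Hapln1 (0.92 ± 0.58). Airway and lung lineage factors had 0 higher and 2 lower of 18, with Etv5, a target of FGF signaling, at -1.89 ± 0.49. The medians of these 5 lists ran from -0.38 to 0.05, beside -0.01 over all genes.

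Shares of nuclei with a transcript were compared after thinning each nucleus to 1000 counts, which left out 790, 730, 147 and 402 shallower tumor-like nuclei. Sox2 was seen in 2.10%, 2.52%, 4.26% and 4.35% of nuclei, a mean of 2.31 ± 0.299% in RP and 4.31 ± 0.0674% in RPC (SD, n = 2; exact permutation test, two-sided, p = 0.33, the smallest that 2 against 2 animals can give). In RPC1 the 95% Clopper-Pearson interval was 3.85% to 4.70%, and such intervals cover counting error only. Monocyte- or macrophage-like nuclei, which should lack Sox2, held it in 0% to 1.16% of nuclei at median depths of 2183 to 3324 counts, where tumor-like nuclei had 2515 to 3378.

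Sox6 was seen in 12%, 14.2%, 9.08% and 31.3% of nuclei and Sox5 in 18.1%, 10.9%, 6.98% and 8.99%, so that Sox5 had the higher share in RP1 and Sox6 in the other 3 animals. Sox11 was seen in 5.67%, 3.12%, 4.36% and 8.00%. Sox1 was seen in 1.0%, 0.526%, 0.0664% and 0.194% of nuclei, and in monocyte- or macrophage-like nuclei in at most 0.654%. For these 5 genes the animals fell in the order of their scaled CPM levels, except that RP1 and RP2 changed places for Sox6 and RPC1 and RPC2 for Sox2. Before thinning, the Sox2 shares were 7.52%, 9.74%, 18.9% and 17.1%, those of Sox6 26.6%, 30.4%, 26.9% and 56.7%, those of Sox5 38.3%, 25.4%, 20.1% and 27.4%, those of Sox11 18.1%, 11.3%, 18.7% and 26.6%, and those of Sox1 4.21%, 2.03%, 0.631% and 1.16%. Sox9 was seen in 0 of 8245 thinned nuclei of RPC2, for which the interval reaches 0.0447%. Shares did not overlap between genotypes for 3 of the 8 genes (Sox1, Sox2 and Sox5), against 46.3% of all genes tested. When RP1, RP2, RPC1 or RPC2 was left out in turn, which sets 1 animal against 2, this held for 6, 4, 6 and 6 of the 8, against 71%, 73.6%, 71.7% and 75.8% of all genes tested.

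Tumor-like clusters were largely those of a single animal, so a cluster is not told apart here from the animal it came from, and the levels are given as a description. The SOXD genes varied most among clusters. In RP1, Sox6 was at 324 CPM in a cluster of 2040 nuclei and at 31.5 and 35.3 in clusters of 2523 and 864 nuclei. In RPC2 it reached 779 CPM in a cluster of 2057 nuclei and 508 in one of 2427, whereas RPC1 lay between 85.2 and 111. Sox2 varied less within an animal, from 18.7 to 28.2 CPM in RP1 and from 42.7 to 60.4 in RPC1.

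A cluster of 636 nuclei, 581 of them from RPC1, was led by the neuronal genes Grik2, Nrxn3 and Erbb4, which encode a glutamate receptor subunit, a synaptic adhesion protein and a neuregulin receptor. In the RPC1 nuclei of this cluster Sox5 was at 529 CPM, against 43.7 and 44.9 in the 2 other tumor-like clusters with at least 100 nuclei of that animal. Sox11 was at 117 CPM against 37.2 and 47.5, and Sox1 at 6.19 against 0.518 and 0.631. These 581 nuclei thus held higher levels of members from 3 subgroups than the other tumor-like clusters of their own animal.

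**Figure D3:**
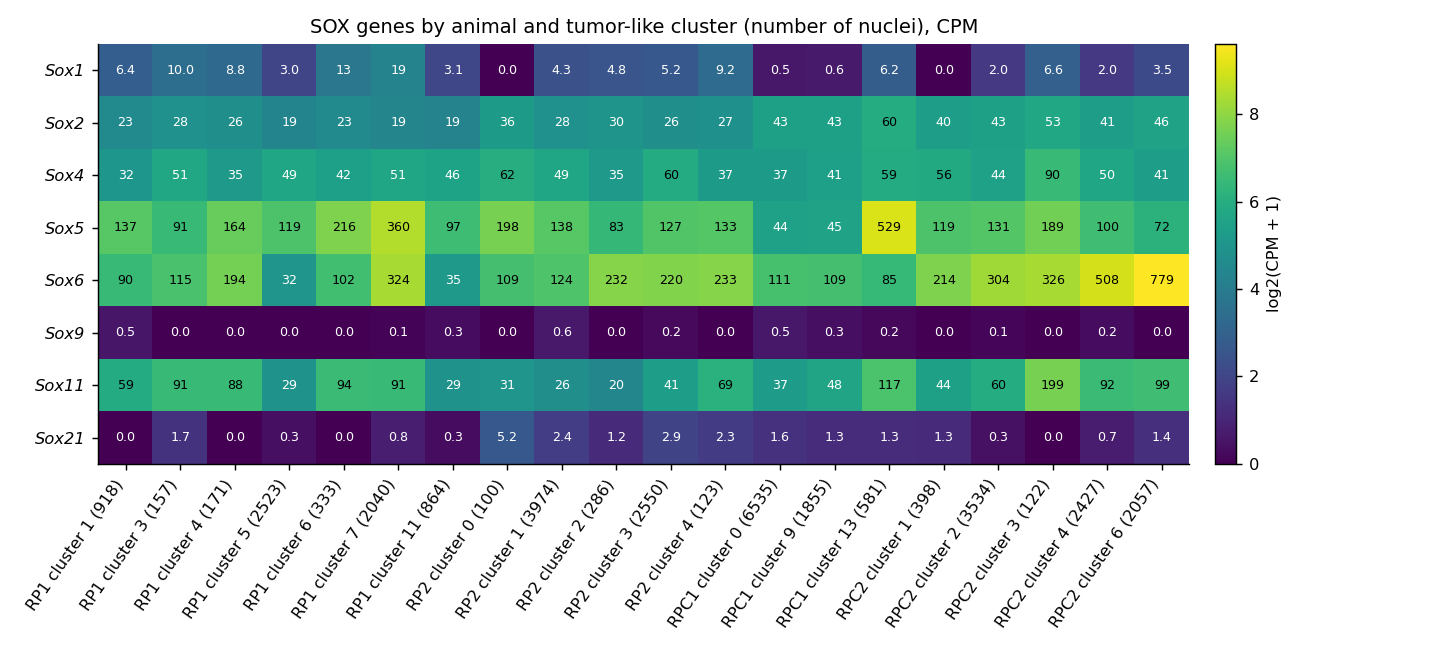
Level of each SOX gene (rows) in each tumor-like cluster of each animal with at least 100 nuclei (columns, number of nuclei in parentheses), printed in CPM and colored by log2(CPM + 1). Sox5 is highest in RPC1 cluster 13 (529 CPM) and Sox6 in RPC2 cluster 6 (779 CPM), while Sox9 stays below 1 CPM in all columns.

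Pairs of members were seen together in the same thinned nucleus at rates that differed between animals. For Sox2 with Sox4, the odds ratio was 1.14, 1.33, 1.26 and 1.27. For Sox5 with Sox6 it was 2.45, 1.24, 0.736 and 0.785, above 1 in both RP animals and below 1 in both RPC animals. For Sox5 with Sox11 it was 1.68, 2.01, 2.12 and 0.856. No test was made of these ratios, which rest on few nuclei with both genes and mix the clusters of an animal.

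Cycling tumor-like nuclei had more Sox11 in every animal. Nuclei thinned to 1000 counts were split by the summed counts of 20 cycling genes, with at least 2 counts (3620, 3274, 5451 and 5703 nuclei) against 0 counts (1347, 1784, 1714 and 1114), and the animal was a block in the fit. Sox11 was at 32.7, 24.7, 30.3 and 61.0 CPM in nuclei without and at 72.9, 37.2, 54.7 and 103 CPM in nuclei with cycling genes. The log2 difference was 0.81 ± 0.11 (SE), 1.76-fold higher in cycling nuclei (edgeR, adjusted p = 1.3e-06, higher in 4 of 4 animals), and DESeq2 gave an adjusted p of 0.00018. Of 6 members tested, Sox11 alone was called by edgeR, against 19.7% of all genes called, 9.59% higher and 10.1% lower, and by DESeq2 too it was the only one, against 8.97%. By direction alone, Sox4 and Sox11 were higher in 4 of 4 animals, against 19.2% of all genes tested, although the fold in Sox4 went no higher than 1.31.

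Sox1, Sox2, Sox4, Sox5 and Sox6 did not pass in this split, with log2 differences from -0.09 (Sox5) to 0.57 (Sox1). Sox6 passed once RPC1 was left out (0.32, edgeR adjusted p = 0.0071). Sox13 fell by 0.52 ± 0.10 (SE) on the log2 scale in cycling nuclei (edgeR adjusted p = 0.00031, lower in 4 of 4 animals). Sox9 and Sox21 were too low to be tested in either split of tumor-like nuclei.

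Nuclei rich in Calca, which encodes the neuroendocrine peptide CGRP, had less Sox11. Here nuclei with at least 2 Calca counts (1347, 1109, 4584 and 3636) were set against nuclei with 0 (3296, 3650, 2136 and 2448). Sox11 was at 74.0, 37.0, 78.7 and 103 CPM in Calca-free nuclei of the 4 animals and at 32.8, 25.3, 32.8 and 73.7 in Calca-rich ones. It fell by 0.82 ± 0.13 (SE) on the log2 scale (edgeR, adjusted p = 0.0017, lower in 4 of 4 animals; DESeq2, adjusted p = 0.0018). All 20 cycling genes fell as well in Calca-rich nuclei, with a median log2 difference of -1.15, so the 2 splits of nuclei were not independent of each other.

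Sox5 fell in Calca-rich nuclei by 0.95 ± 0.28 (SE) on the log2 scale (edgeR, adjusted p = 0.046). It was at 294, 162, 224 and 90.7 CPM in Calca-free nuclei and at 136, 78.7, 47.7 and 121 in Calca-rich ones, so that RPC2 went the other way. The call was lost by DESeq2 (adjusted p = 0.41), without the cluster led by neuronal genes (-0.50, edgeR adjusted p = 0.13) and without RP1 (adjusted p = 0.12), RP2 (0.16) or RPC1 (0.20). The call thus depended on each of these.

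With 2 of 6 members called lower, the background was 10.7% of all genes called, 4.94% higher and 5.71% lower, and DESeq2 called 1, Sox11, against 5.32%. Sox1 had a log2 difference of -1.45 ± 0.44 (SE; edgeR, adjusted p = 0.054, lower in 4 of 4 animals), and Sox6 one of -0.72 ± 0.22 (SE; edgeR, adjusted p = 0.051, lower in 3 of 4). Sox1 and Sox11 were the members that were lower in all 4 animals, against 17.3% of all genes tested (29.7% in either direction). Sox6 was called without the neuronal cluster (adjusted p = 0.036) and Sox1 without RPC2 (adjusted p = 0.029). Sox2 and Sox4 lay at 0.12 and -0.10. Sox13 rose by 0.61 ± 0.11 (SE; edgeR, adjusted p = 0.0037, higher in 4 of 4 animals), and Sox1ot fell by 1.78 ± 0.34 (SE; adjusted p = 0.0048).

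**Figure D4:**
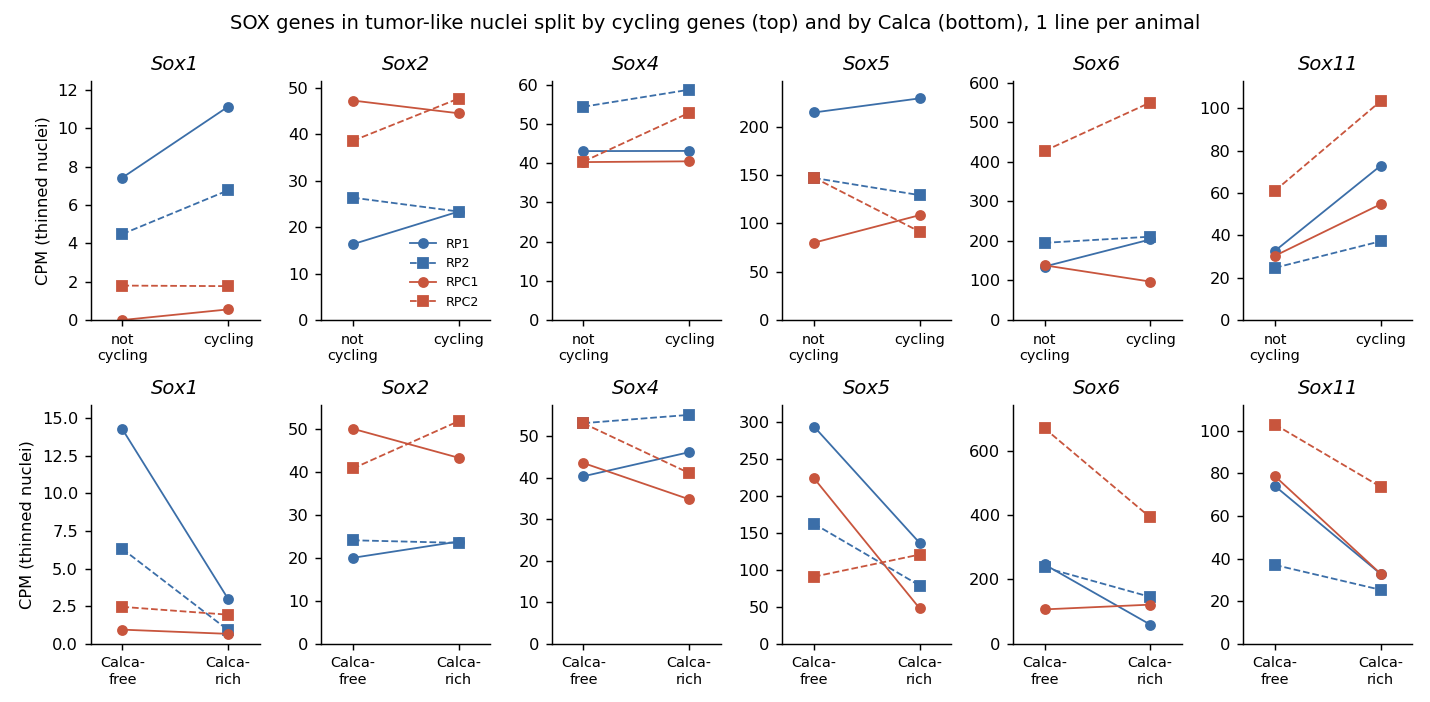
CPM of thinned counts (y axis, linear) in tumor-like nuclei without and with cycling genes (top) and without and with Calca (bottom), with 1 line per animal (RP blue, RPC red, solid for replicate 1 and dashed for replicate 2). All 4 lines rise with cycling genes and fall with Calca for Sox11, whereas for Sox2 they go in both directions.

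In the lists of other genes, beside 19.7% of all genes called, the cycling split called 3 of 5 POU and PAX factors tested, 2 higher and 1 lower (Pou2f1, Pou2f2 and Pou6f1), 3 of 10 neural stem genes (Egfr, Id2 and Id4; 1 higher, 2 lower) and 5 of 13 neurogenic genes (3 higher, 2 lower; Elavl3, Myt1, Myt1l, St18 and Stmn1). It also called 1 of 3 cartilage genes, Col11a1, higher. In the Calca split, where 10.7% of all genes were called, the neurogenic list had 1 of 13 called higher and 4 called lower, Rbfox3 at -1.18 ± 0.16 (SE) among the latter, and Col11a1 lay at -1.55 ± 0.13. That split also called Pou2f2 lower of 6 partner factors, and Egfr and Id4 higher of 11 neural stem genes.

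Outside the tumor-like nuclei, the SOX genes marked different classes, and the levels across classes are a description, since classes were clustered from the same nuclei. Sox5 was highest in stromal nuclei. In fibroblast-like nuclei, of which each animal had only 10 to 33, it was at 2019, 2138, 2825 and 2543 CPM. In pericyte- or smooth muscle-like nuclei it was at 2457 ± 559 (SD, n = 4), a range of 1937 to 3010. These 2 classes overlapped, and both lay above club-like nuclei, at 510 to 1122 CPM in the 3 animals with at least 20 such nuclei. Only 4 of the 9 fibroblast markers were highest in the fibroblast-like nuclei and 1 was at 0, so that name is weakly held.

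Sox6 was highest in club-like nuclei, at 411 ± 132 CPM (SD, n = 3), with tumor-like nuclei at 236 ± 157 (n = 4), ranges that overlap (285 to 547 and 109 to 466). Sox9 was at 14.0 ± 8.95 CPM in club-like nuclei and 7.38 ± 9.77 in pericyte- or smooth muscle-like nuclei, and had no transcript in endothelial-like, monocyte- or macrophage-like, B cell-like, T or NK cell-like or alveolar nuclei. Sox2 in club-like nuclei was at 33.6 ± 8.06, alongside 33.6 ± 11.9 in tumor-like nuclei. Sox13 was highest in endothelial-like nuclei, at 161 ± 31.6 CPM. The endothelial factor Sox17 was at 75.3 ± 22.4 there and at 0.0616 ± 0.0140 in tumor-like nuclei.

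**Figure D5:**
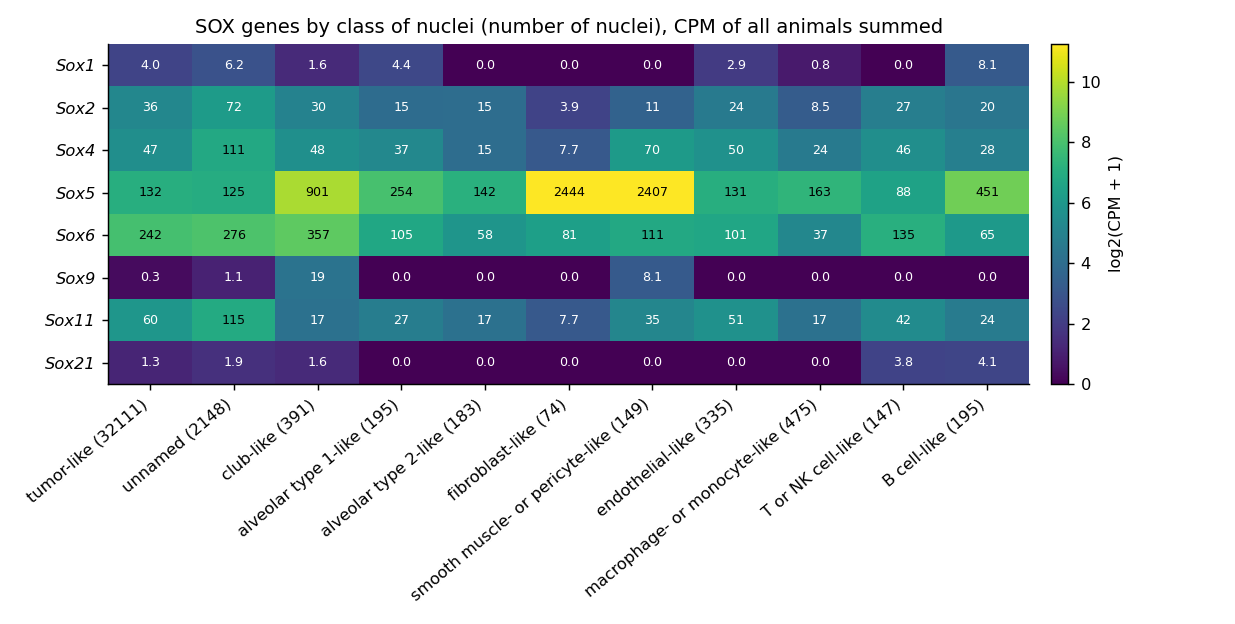
Level of each SOX gene (rows) in each class of nuclei (columns, number of nuclei in parentheses), as CPM of the summed counts of all animals, colored by log2(CPM + 1). Sox5 stands out in fibroblast-like (2444 CPM) and pericyte- or smooth muscle-like (2407) nuclei, and among the classes drawn Sox9 is above 2 CPM only in club-like and pericyte- or smooth muscle-like nuclei.

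Of the 2148 unnamed nuclei, 2035 formed a shallow cluster (median 995 transcripts) with Rn18s-rs5 at 32.7%, 26.7%, 16.2% and 20% of its transcripts. Tumor-like nuclei had a median of 114 CPM over the 14 neuroendocrine markers, and this shallow cluster had 152 CPM. Levels of the single-exon genes Sox2, Sox4 and Sox11 were higher there than in tumor-like nuclei of the same animal. Sox11 was at 171, 101, 185 and 269 CPM, against 65.3, 35.1, 49.9 and 82.5 in tumor-like nuclei. Sox2 was at 65.5, 78.5, 185 and 138, and Sox4 at 150, 202, 231 and 214. The long genes were lower there in all 4 animals, with Sox6 at 79.7, 69.4, 43.5 and 187 CPM and Sox5 at 125, 74.0, 76.1 and 58.2. The other 113 unnamed nuclei, 110 of them from RPC2, formed a deep sub-cluster (median 23764 transcripts) led by genes such as Cbr2 and Sftpb, in which the RPC2 nuclei had Sox11 at 64.4 and Sox6 at 420 CPM. The part of RNA quality in these levels was not tested.

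In monocyte- or macrophage-like nuclei (94, 186, 97 and 98), Sox5 and Sox6 were the members that passed the filter. Sox5 had 140, 53, 7 and 10 transcripts, or 642, 145, 19.6 and 44.3 scaled CPM. Both RPC animals were below both RP animals, and RP1 was far above RP2, with 43.1% of all genes tested free of overlap. The log2 difference was -3.66 ± 0.74 (SE; edgeR, adjusted p = 0.25), edgeR called 0 of 5921 genes (0%), and 1 of 2 members tested had an unadjusted p under 0.05 against 10.7% of all genes. DESeq2 called 13 genes (0.286%), Sox5 not among them (adjusted p = 0.27). In fits that left out 1 animal the log2 difference of Sox5 ran from -4.40 to -2.26, and with the deep sub-clusters of this class added it was -1.58. Most RP nuclei of the class came from sub-clusters led by Myo1f and Fyb. In RPC1 the largest number came from one led by Atp6v0d2 (55 nuclei). In RPC2 it came from the one led by Myo1f (29 nuclei, against 25 in the one led by Atp6v0d2). Sox6 lay at -0.72 ± 0.54 (SE; adjusted p = 0.66).

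In endothelial-like nuclei (54, 100, 56 and 125), Sox5 alone passed the filter, with 8, 25, 40 and 16 transcripts. The log2 difference was 0.33 ± 0.68 (SE; edgeR, adjusted p = 0.90), edgeR called 0 of 3686 genes (0%), with 10.6% at an unadjusted p under 0.05 and no member among them, and without RPC1 it was -0.98. DESeq2 called 10 genes (1.19%), no member among them.

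Whether the effect of genotype differed between tumor-like nuclei and the endothelial-like and monocyte- or macrophage-like nuclei together was tested by an interaction term. It called 72 of 18675 genes (0.386%) and 0 of 7 members, of which Sox5 had an unadjusted p under 0.05, against 4.24% of all genes. For Sox5 the difference of the log2 effects, tumor-like minus other, was 1.04 ± 0.35 (SE; edgeR, adjusted p = 0.31). That of Sox2 was -0.53 ± 0.69. Sox9 was too low to be tested, and Sox21 could not be estimated.

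The genes with levels most like each member over 20 sums of a class and an animal were named as a description, with Pearson's r on log2(CPM + 1), the points sharing animals and depth. They were Hook1, Scara3 and Ttc8 for Sox2 (r = 0.88, 0.88 and 0.87), Entpd3, Gfra1 and Lnx1 for Sox6 (0.88, 0.88 and 0.86), and Efcab5, Map1a and Meis2 for Sox11 (0.87, 0.86 and 0.86). Sox4 was most like Syncrip, Pdcd5 and Kit (0.84, 0.81 and 0.81). For Sox9, which was above 0 in few points, they were Cyp1b1, Atp6v1b1 and Vtcn1 (0.998, 0.98 and 0.94). Sox1, Sox5 and Sox21 had no gene above r = 0.75, the closest being Tmem222 (0.74), Huwe1 (0.74) and 2610035D17Rik (0.73).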

How the data were processed

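Single nuclei of 4 tumors were barcoded together. The authors' deposited counts are raw transcript counts per gene and nucleus, made with the Parse pipeline on GRCm39 per the labels and methods, with no normalization. Of the 12 columns in the table of nuclei, 9 were not used. Nuclei with at least 300 counts, at most 10% mitochondrial counts and at most 12000 genes were kept, clustered (2000 variable genes, none a SOX gene, 20 components, 20 neighbors, Leiden 0.10.2 at resolution 0.4) and named from markers, by a naming rule set after the clusters were seen. No doublet caller was run. Counts were summed per animal and tested with edgeR 4.0.16 (quasi-likelihood, TMM, filterByExpr, two-sided, Benjamini-Hochberg over all genes tested, threshold 0.05) and, as an alternative, DESeq2 1.42.0, in R 4.3.3. SE were derived from the F statistic. Tested on simulated data for tumor-like nuclei, edgeR recovered 88 of 100 genes changed 2-fold and 100 of 100 changed 4-fold. The simulated spread between animals was smaller than that of the real fit (biological coefficient of variation 0.285). These numbers therefore do not give the power of the real test. The SOX genes, the gene lists and the tests were chosen with earlier results of these data known. Named genes were the 8 members, Casp8, Rb1 and Trp53, other SOX genes tested, the extreme genes of each list (at most 2 in each direction) and the 3 genes most like each member. Genes called in a list were named in addition. Each of the 7 libraries held all 4 animals, whereas a barcoding well held 1 animal (2, 2, 3 and 2 wells for RP1, RP2, RPC1 and RPC2), so well and animal cannot be told apart. Whether animals of a genotype shared a litter is not given in the sources used here. Calls of the lung lineage list in the splits of tumor-like nuclei are not reported here.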

Additional observations from a re-analysis of the deposited data

Results flagged for a closer look

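Sox4 in the split of tumor-like nuclei by Calca moved in opposite directions in the 2 genotypes. From Calca-free to Calca-rich nuclei it went from 40.4 to 46.2 CPM in RP1 and from 53.2 to 55.1 in RP2, both higher, and from 43.5 to 34.8 in RPC1 and from 53.1 to 41.1 in RPC2, both lower. Calca-rich nuclei held 62, 61, 159 and 149 Sox4 transcripts, and the folds over Calca-free nuclei were 1.14, 1.04, 0.80 and 0.77. The rise in the RP animals was thus small and rested on few transcripts. The mean log2 difference in RPC minus that in RP was -0.47. The difference was not tested.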

How the results depend on the processing

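Of the settings tried for counts of members called or without overlap of shares, 46 values stayed within 1.5 times the value reported and 17 did not. For single genes 334 values kept their direction and, where a test was made, their side of the threshold. A further 15 passed it newly, 5 lost it and 32 changed sign. The single-gene values include differences of shares and ratios of mean CPM, which had no threshold. DESeq2 gave 1 member called in tumor-like nuclei and 1 over all kept nuclei where edgeR gave 0, and 1 in the Calca split where edgeR gave 2. Without the filter on low counts the Calca split had 4 members called. That fit covered 28979 genes, not 13442, so the share of 10.7% of all genes called does not apply to it. With the deep sub-clusters added, a setting chosen after seeing the data, the log2 difference of RPC from RP was -0.53 for Sox5 in endothelial-like nuclei and 0.36 for Sox6 in the monocyte- or macrophage-like ones. Without thinning, the share of nuclei with Sox4 was 1.68 percentage points higher in RPC. The cause of these changes was not tested.

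When 1 animal was left out, the log2 difference in tumor-like nuclei ran from -0.81 to 1.3 for Sox6, -0.17 to 1.35 for Sox9, -0.068 to 0.88 for Sox11 and -1.36 to 0.98 for Sox21. Over all kept nuclei the ranges were -0.74 to 1.3 for Sox6, -0.99 to 1.87 for Sox9, -0.11 to 0.91 for Sox11 and -1.57 to 0.53 for Sox21. In endothelial-like nuclei Sox5 ran from -0.98 to 1.15, and in the monocyte- or macrophage-like ones from -4.40 to -2.26. For the interaction the ranges were 0.585 to 1.55 for Sox5, -9.93 to 5.48 for Sox1 and -0.54 to 0.35 for Sox4. Those of Sox6 and Sox11 were -0.53 to 0.16 and -0.92 to 0.067. For Sox21, where no effect could be estimated, the range was -1.46 to 0.99. In the cycling split Sox2 ran from -0.014 to 0.17 and Sox5 from -0.23 to 0.088. In the Calca split 1 to 3 were called (1 without RP1 and 1 without RP2), with Sox2 from -0.011 to 0.26 and Sox4 from -0.21 to 0.00139. Shares of thinned nuclei did not overlap for 4 to 6 members, against 71% to 75.8% of all genes, with RPC minus RP from -1.08 to 0.114 percentage points for Sox4, -4.03 to 18.2 for Sox6, -0.0234 to 0.0319 for Sox9, -0.0408 to 3.61 for Sox11 and -0.174 to 0.0417 for Sox21. Fits without 1 animal assume that the lone animal left in a genotype varies like the others.

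Replicate numbers of RP and RPC animals were only names, since the deviations of RP1 and RPC1 from their group means correlated at -0.05 over all genes tested. With these numbers as a replicate block, edgeR called 0 members in tumor-like nuclei, 0 over all nuclei and 0 in endothelial-like nuclei, and 1 among the monocyte- or macrophage-like ones (Sox5, log2 difference -3.48, adjusted p = 0.029). The share of all genes called in that last fit is not given here. The depth of the nuclei limits Sox9 and Sox21, which had at most 77 transcripts in the tumor-like nuclei of any animal.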
